A study of Mus musculus with 9 samples.

Results

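The early B lineage and recombination genes examined here are Vpreb1, Igll1, Cd79a, Cd79b, Bank1, Ebf1, Il7r, Rag1, Rag2 and Dntt. All probe sets annotated to 1 of these 10 symbols alone were taken, which gave 18 of the 45037 probe sets on the array. Expression was measured in CD45.1+ LKS+ cells, marrow cells that lack lineage markers and carry Kit and Sca-1, a fraction that holds blood stem cells and early progenitors. The cells came from bone marrow of C57BL/6 mice aged 8 weeks, in 3 groups of 3 Affymetrix arrays each: mice with acute myeloid leukemia at day 14, mice with it at day 7, and control mice. The series describes the sorted cells as normal stem cells, not leukemic ones. No day is given for the control mice, so a change with time cannot be told apart from one with leukemia in comparisons with control. Both such comparisons share the same 3 control arrays, and how the leukemia was produced is not given in the sources used here. The labels do not say that replicates are separate animals or sorts, and the p-values therefore cover the spread between these arrays alone, which may be technical.

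B cells arise from lymphoid-primed progenitors through stages marked by ordered gene expression and by rearrangement of immunoglobulin genes. Interleukin 7, received through Il7r, supports the earliest committed cells, and the transcription factor Ebf1 acts with E proteins and Pax5 to set up the B cell programme. Rag1 and Rag2 together form the recombinase that cuts antigen receptor genes, and Dntt, terminal deoxynucleotidyl transferase, adds bases at the joins. Vpreb1 and Igll1 encode the surrogate light chain, which pairs with a new heavy chain in the pre-B receptor, and Cd79a and Cd79b carry the signal of that receptor into the cell. Some of these genes, Dntt and Rag1 among them, are already transcribed in lymphoid-primed cells within the LKS+ fraction.

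The promoters of Vpreb1, Igll1, Cd79a and Rag1 are shown, 4 of the genes called higher at day 14 than in control. Each covers 250 bases before and 50 after the annotated start in RefSeq for GRCm38.p6, printed on the gene's own strand. Capitals mark CAGGTG, the E-box letters bound by E proteins, and TGGGAA, the core letters bound by Ikaros factors, each searched on both strands. The Vpreb1 window is chr16:16869206-16869505 on the minus strand, the Igll1 window chr16:16863936-16864235 on the minus strand, the Cd79a window chr7:24897247-24897546 on the plus strand and the Rag1 window chr2:101649483-101649782 on the minus strand.
Vpreb1: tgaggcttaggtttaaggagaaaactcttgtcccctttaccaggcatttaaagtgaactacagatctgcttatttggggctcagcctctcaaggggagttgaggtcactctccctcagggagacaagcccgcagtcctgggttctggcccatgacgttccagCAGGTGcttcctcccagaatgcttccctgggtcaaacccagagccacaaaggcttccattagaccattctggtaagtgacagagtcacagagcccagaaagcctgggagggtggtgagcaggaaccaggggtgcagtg
Igll1: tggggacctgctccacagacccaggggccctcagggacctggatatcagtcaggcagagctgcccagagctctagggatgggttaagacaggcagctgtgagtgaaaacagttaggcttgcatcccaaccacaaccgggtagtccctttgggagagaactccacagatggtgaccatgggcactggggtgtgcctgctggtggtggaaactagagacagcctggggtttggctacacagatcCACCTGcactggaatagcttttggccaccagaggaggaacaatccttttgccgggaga
Cd79a: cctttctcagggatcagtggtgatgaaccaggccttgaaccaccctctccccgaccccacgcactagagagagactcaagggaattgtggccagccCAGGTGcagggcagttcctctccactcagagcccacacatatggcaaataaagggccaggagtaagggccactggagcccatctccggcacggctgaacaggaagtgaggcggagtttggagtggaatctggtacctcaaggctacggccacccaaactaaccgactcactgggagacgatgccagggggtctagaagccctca
Rag1: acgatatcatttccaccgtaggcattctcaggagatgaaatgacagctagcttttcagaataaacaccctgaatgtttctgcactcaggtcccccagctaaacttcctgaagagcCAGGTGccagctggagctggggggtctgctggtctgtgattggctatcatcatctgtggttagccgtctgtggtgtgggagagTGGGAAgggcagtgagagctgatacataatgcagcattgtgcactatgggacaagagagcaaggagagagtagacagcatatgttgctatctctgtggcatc

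CAGGTG was found once in each of these 4 windows and once in that of Bank1, and in 20.2% of all 32851 promoter windows of the same length. It was absent from both windows of Ebf1, also called higher at day 14, and from those of Il7r, Rag2 and Dntt. The windows of these genes and of Bank1 are not shown, so the 4 shown do not stand for the members as a set. The first base of the match lay 88 bases before the start in Vpreb1, 8 before it in Igll1, 154 before it in Cd79a and 135 before it in Rag1. TGGGAA was found in the Rag1 window and in 1 of the 2 windows of Ebf1, and in 25.6% of all windows. A palindrome form of the letters bound by Ebf1, searched exactly as TCCC, any 2 bases and GGGA, was in none of the 10 windows held for 9 of the genes. It was in 0.904% of all windows. The search misses any site that departs from these letters, so the lack of a match does not show that a window lacks an Ebf1 site. A match is a description of letters and not a measured binding site. Vpreb1 and Igll1 are neighbours on chromosome 16, with 4.42 kb between them, and Rag1 and Rag2 are neighbours on chromosome 2, with 5.72 kb between them.

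Values are the deposited normalized intensities on a linear scale, and changes are differences of mean log2 intensity. With no detection calls in the table, a probe set was taken as dim on an array where it lay below that array's 40th percentile, an intensity of 14.1 to 15.2. Of the 18 probe sets, 13 lay above it on at least 3 arrays and were tested by limma, with Benjamini-Hochberg adjustment over all 27665 probe sets that did. The 5 left out were 4 of the 5 Ebf1 probe sets and 1 of the 2 for Igll1. All 9 measured LKS markers, among them Kit and Flt3, lay above the 40th percentile on all 9 arrays. At day 14 against control, Gata2 was called higher (log2 change 0.43, SE 0.09, adjusted p = 0.00508 in limma). Procr was called lower (-0.43, SE 0.12, adjusted p = 0.0171), and 7 did not pass. The call of Procr was lost with quantile normalization, with arrays set to the same 75th percentile and with no filter on dim probe sets. Kit, the stem cell factor receptor, averaged 1696 ± 199 at day 14, 1453 ± 65.5 at day 7 and 1720 ± 40.3 in control (SD, n = 3 each). Fewer cells of a type and less RNA per cell cannot be told apart in such bulk samples.

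**Figure D1:**
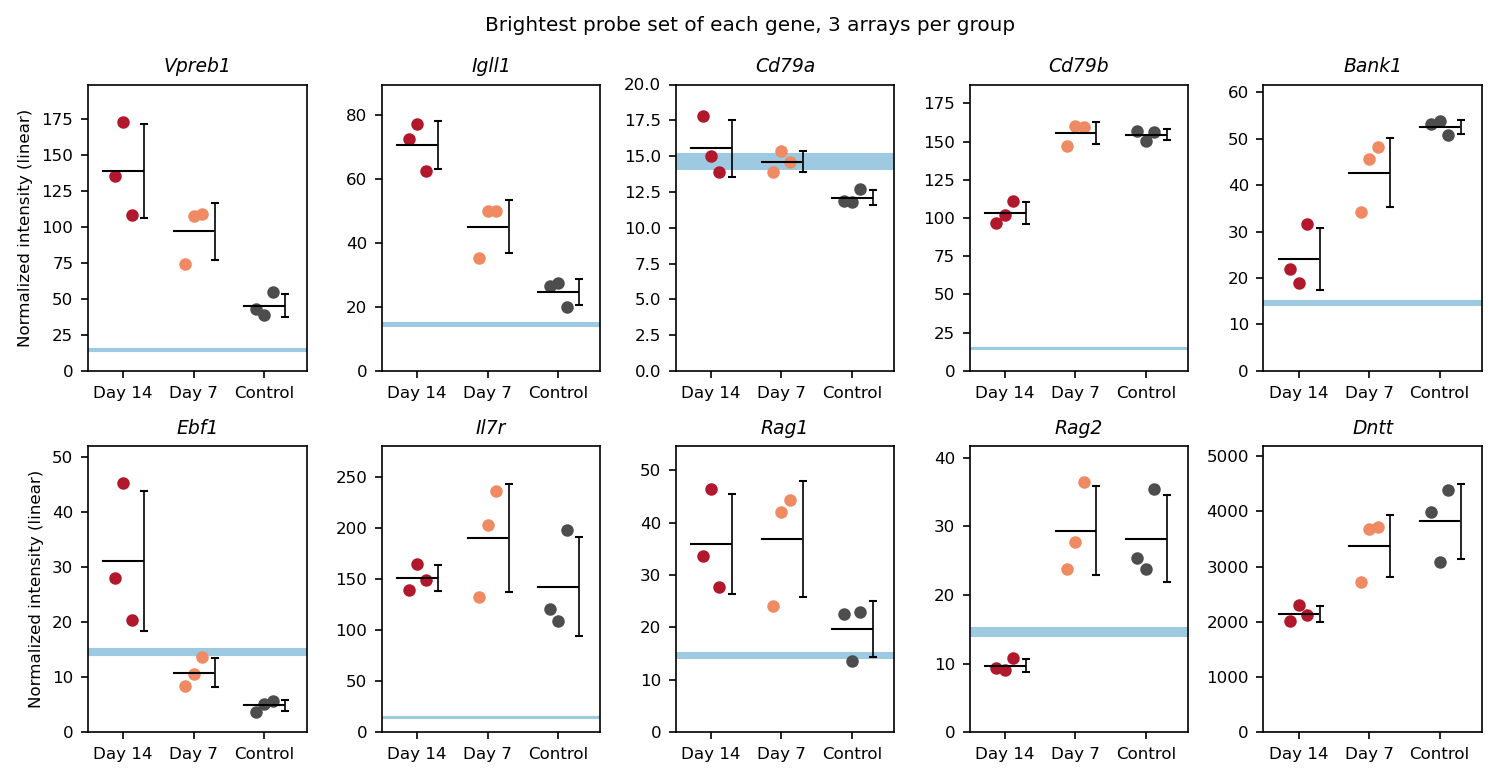
Normalized intensity (linear axis from 0) of the brightest probe set of each gene on the 3 arrays of each group, with points for arrays, horizontal lines for means and bars for 1 SD. The blue band is the 40th percentile of the arrays (14.1 to 15.2); Rag2 lies below it on all day 14 arrays, and Ebf1 on all day 7 and control arrays.

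Both surrogate light chain genes were higher in leukemic mice than in control mice at both days. Vpreb1 had intensities of 135, 173 and 108 at day 14, 74.5, 108 and 109 at day 7, and 42.8, 38.9 and 54.7 in control. Every leukemic array lay above every control array, while the 2 leukemic days overlapped. Vpreb1 rose 3.03-fold at day 14 (log2 change 1.60, SE 0.20, adjusted p = 0.000266 in limma) and 2.13-fold at day 7 (1.09, SE 0.20, adjusted p = 0.0242 in limma). Between day 14 and day 7 the log2 change was 0.51, with a 95% interval of 0.06 to 0.96, and did not pass (adjusted p = 0.0647 in limma). That difference passed with quantile normalization (0.64, adjusted p = 0.0255) and with arrays set to the same 75th percentile (0.64, adjusted p = 0.0248), and over 19 alternatives its adjusted p in limma ran from 0.0248 to 0.223.

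Igll1, the lambda 5 part of the surrogate light chain, had intensities of 72.6, 77.3 and 62.6 at day 14, 35.5, 50.01 and 50.01 at day 7, and 26.6, 27.5 and 19.9 in control on its brighter probe set. The 3 groups did not overlap and stood in the order day 14, day 7, control. It rose 2.89-fold at day 14 over control (log2 change 1.53, SE 0.16, adjusted p = 0.00011 in limma), 1.83-fold at day 7 over control (0.87, SE 0.16, adjusted p = 0.025) and 1.58-fold at day 14 over day 7 (0.66, SE 0.16, adjusted p = 0.00881). This probe set, 1420176_x_at, carries the suffix that the maker gives to sets with probes shared by other transcripts. The other, 1420177_at, lay below the 40th percentile on all 9 arrays, at 11.0 to 14.4 at day 14, 9.15 to 10.2 at day 7 and 11.3 to 12.3 in control, so the Igll1 result rests on 1420176_x_at alone. A probe set shared by Vpreb1 and its close copy Vpreb2, which names neither alone, read 40.7, 49.8 and 30.9 at day 14, 24.3, 27.1 and 30.0 at day 7, and 22.3, 19.3 and 20.03 in control.

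The day 7 calls of this pair were lost when any 1 of several arrays was left out, although the direction held. Vpreb1 at day 7 did not pass without control replicate 1 (adjusted p = 0.0518 in limma), control replicate 2 (0.0506), day 7 replicate 2 (0.0782) or day 7 replicate 3 (0.0943), with log2 changes of 0.98 to 1.05 in these fits. Igll1 at day 7 did not pass without control replicate 3 (adjusted p = 0.0644 in limma), day 7 replicate 2 (0.0795) or day 7 replicate 3 (0.0948), with log2 changes of 0.72 to 0.79. Over 19 alternatives the adjusted p at day 7 ran from 0.0113 to 0.13 for Vpreb1 and from 0.0134 to 0.128 for Igll1. At day 14 both calls over control were kept in all 19.

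Ebf1, the transcription factor that specifies the B lineage, was measured above the 40th percentile at day 14 only. Its brightest probe set had intensities of 27.9, 45.2 and 20.4 at day 14, 8.38, 10.6 and 13.6 at day 7, and 3.79, 5.19 and 5.74 in control. The groups did not overlap, yet all day 7 and control arrays were dim. Ebf1 was at least 2.06-fold higher at day 14 than in control and at least 2.07-fold higher than at day 7, where the bound sets the day 14 mean against the 40th percentile of the dimmer arrays. The adjusted p in limma was 0.000125 over control and 0.00134 over day 7. Since the probe set entered the test through the 3 day 14 arrays alone, a difference at day 14 was built into its selection, and without any 1 of those arrays it was not tested. The other 4 Ebf1 probe sets were not tested. On all 5, every day 14 array lay above every control array. Of those 4, 1416301_a_at read 22.9, 32.1 and 13.03 at day 14 and was at least 1.48-fold higher than in control, and 1416302_at was at least 1.07-fold higher. The other two, 1439789_at and 1457441_at, gave no bound above 1.

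**Figure D2:**
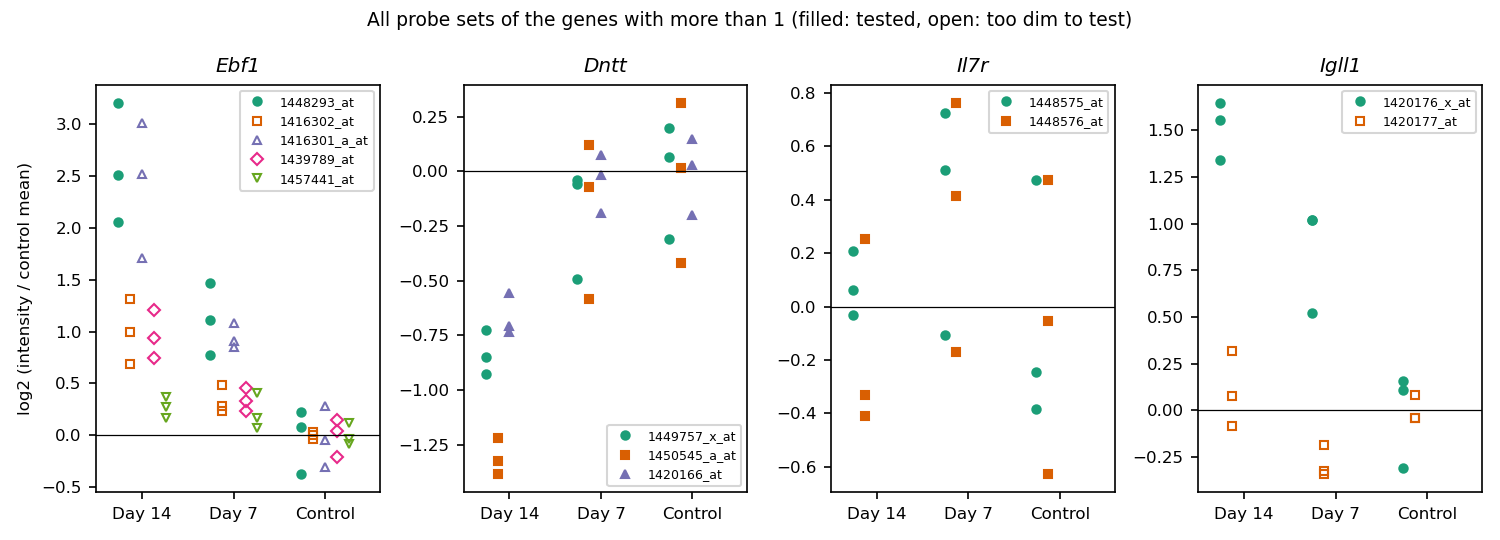
Log2 of each array's intensity over the control mean of the same probe set, without a floor, for the 4 genes with more than 1 probe set (filled symbols tested, open symbols too dim to test). The 3 Dntt probe sets lie below control on all day 14 arrays, all 5 Ebf1 probe sets lie above it, and the 2 Igll1 probe sets do not move alike.

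Of the receptor signalling genes, Cd79b and Bank1 were lower at day 14 than in control, and Cd79a was called higher. Cd79a was dim on all control arrays and was tested through leukemic arrays alone, so its direction was partly set by that selection. Cd79b, the beta signalling chain, had intensities of 97.0, 102 and 111 at day 14, 147, 160 and 160 at day 7, and 157, 150 and 156 in control. The day 14 arrays lay below all others, and day 7 and control overlapped. Cd79b fell to 0.668 of control at day 14 (log2 change -0.58, SE 0.07, adjusted p = 0.000254 in limma) and to 0.663 of day 7 (-0.59, SE 0.07, adjusted p = 0.000206). At day 7 its log2 change from control was 0.01, with a 95% interval of -0.15 to 0.17.

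Bank1, an adaptor of B cell receptor signalling, had intensities of 21.9, 18.9 and 31.6 at day 14, 34.2, 45.6 and 48.3 at day 7, and 53.1, 53.7 and 50.9 in control. The groups did not overlap and ran opposite to the surrogate light chain, lowest at day 14 and highest in control. Bank1 fell to 0.448 of control at day 14 (log2 change -1.16, SE 0.18, adjusted p = 0.000832 in limma) and to 0.558 of day 7 (-0.84, SE 0.18, adjusted p = 0.00438). Day 7 against control gave -0.32, with a 95% interval of -0.72 to 0.09, and did not pass (adjusted p = 0.349).

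Cd79a, the alpha signalling chain, stayed near the 40th percentile. It had intensities of 17.8, 15.0 and 13.9 at day 14, 13.9, 15.3 and 14.6 at day 7, and 11.8, 11.8 and 12.7 in control. All control arrays were dim, as was 1 array of each leukemic group, and the leukemic arrays lay above the control arrays. It entered the test through leukemic arrays alone, so its difference from control was partly set by that selection. It was at least 1.08-fold higher at day 14 than in control (adjusted p = 0.0122 in limma, and 0.0351 with no filter on dim probe sets), a call lost with an offset of 32 added before log2 (adjusted p = 0.0727, in a range of 0.00457 to 0.0727 over 18 alternatives). At day 7 the log2 change of 0.27 did not pass (adjusted p = 0.133).

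Il7r, the interleukin 7 receptor alpha chain, did not pass in any of the 3 comparisons, and its arrays spread widely within groups. The brighter probe set read 140, 165 and 149 at day 14, 133, 203 and 236 at day 7, and 121, 110 and 198 in control. The other read 40.05, 60.01 and 37.9 at day 14, 44.7, 67.2 and 85.4 at day 7, and 48.6, 32.6 and 69.9 in control. All groups overlapped on both probe sets. At day 7 the log2 changes from control were 0.43 (95% interval -0.11 to 0.97) and 0.40 (-0.27 to 1.08), so a rise of up to about 0.97 on the brighter probe set was within reach of these data. At day 14 they were 0.13 (-0.41 to 0.67) and -0.09 (-0.77 to 0.58).

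Of the recombinase pair, Rag1 was called higher and Rag2 lower at day 14 than in control. Rag1, the subunit that carries the cutting site, had intensities of 33.6, 46.4 and 27.6 at day 14, 24.1, 42.0 and 44.4 at day 7, and 22.6, 13.6 and 22.9 in control. The leukemic arrays lay above the control arrays on both days, and the 2 days overlapped. Rag1 rose 1.83-fold at day 14 (log2 change 0.87, SE 0.28, adjusted p = 0.0299 in limma), and gave 0.89 (SE 0.28) at day 7, where it did not pass (adjusted p = 0.107). The day 14 call was lost without control replicate 2 (adjusted p = 0.104), the array that lay below the 40th percentile, without day 14 replicate 1 (0.063) and without day 14 replicate 2 (0.103), with log2 changes of 0.62 to 0.90. It was also lost with no filter on dim probe sets (adjusted p = 0.118 in limma) and with the replicate number as a block (0.051). Over 18 alternatives the adjusted p ran from 0.016 to 0.118.

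Rag2, the cofactor that Rag1 needs for cutting, had intensities of 9.38, 9.04 and 10.8 at day 14, 23.8, 27.8 and 36.5 at day 7, and 25.4, 23.8 and 35.5 in control. All day 14 arrays were dim, all other arrays lay above the 40th percentile, and day 7 overlapped with control. Rag2 entered the test through day 7 and control arrays alone. It was at least 1.85-fold lower at day 14 than in control (adjusted p = 0.000184 in limma) and at least 1.93-fold lower than at day 7 (adjusted p = 0.000137). With no filter on dim probe sets these adjusted p in limma were 0.00396 and 0.00317. Day 7 differed from control by 0.06, with a 95% interval of -0.34 to 0.45. Rag1 between day 14 and day 7 gave -0.02, with an interval of -0.65 to 0.61. Whether the changes of the 2 genes differ from each other was not tested.

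Dntt was bright on all arrays and fell at day 14 on all 3 of its probe sets. The brightest read 2008, 2306 and 2123 at day 14, 2717, 3671 and 3708 at day 7, and 3991, 3076 and 4382 in control. Day 14 lay below every other array, and day 7 and control overlapped. The 3 probe sets fell to 0.567, 0.412 and 0.634 of control at day 14, with log2 changes of -0.82 (SE 0.15, adjusted p = 0.00204 in limma) for 1449757_x_at, -1.28 (SE 0.20, adjusted p = 0.000863) for 1450545_a_at and -0.66 (SE 0.10, adjusted p = 0.000936) for 1420166_at. Against day 7 they fell by 0.64, 1.13 and 0.62 on the log2 scale. At day 7 the changes from control were -0.18, -0.15 and -0.04, and none passed.

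**Figure D3:**
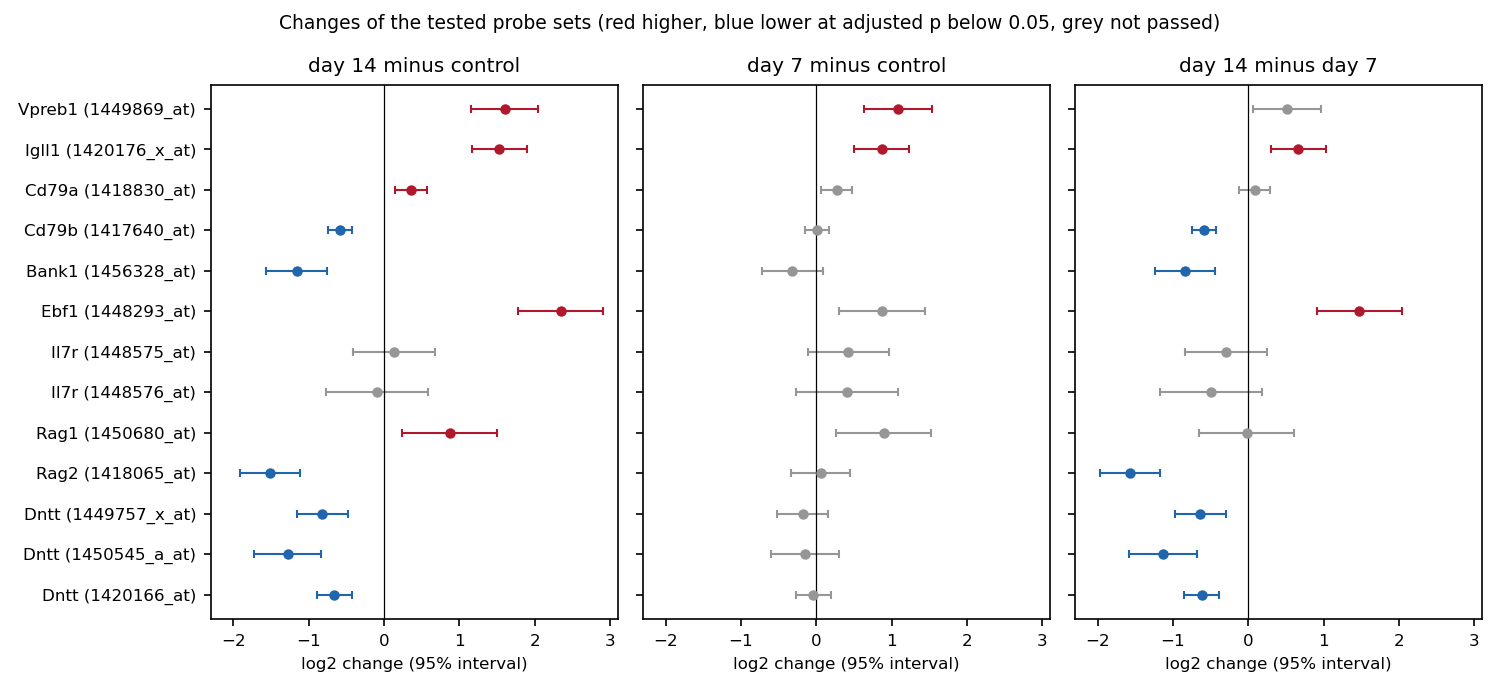
Log2 change with its 95% interval for the 13 tested probe sets in the 3 comparisons (red higher and blue lower at an adjusted p below 0.05, grey not passed). At day 14 against control 5 lie to the right and 6 to the left among those called, and the 6 include all Dntt probe sets. Ebf1, Cd79a and Rag2 are each dim on all arrays of 1 group or more. At day 7 against control only Vpreb1 and Igll1 are called.

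Over the 13 tested probe sets, 5 were higher and 6 lower at day 14 than in control, and 2 did not pass, where 44.4% of all 27665 tested probe sets were called, 17% higher and 27.5% lower. At day 7, 2 were higher than in control and none lower by limma, where 3.39% of all were called, 1.9% higher and 1.49% lower, and 5908 had an unadjusted p below 0.05. Between day 14 and day 7, 2 were higher and 6 lower, where 42.2% of all were called, 16.5% higher and 25.7% lower. The 6 lower include all Dntt probe sets in both day 14 comparisons, so 1 gene counts more than once in these counts and medians. With 1 probe set per gene, 5 members were higher and 4 lower at day 14 than in control. Between the days 2 were then higher and 4 lower. With no filter on dim probe sets, so that all 18 were tested, 6 were higher and 6 lower between the days. Groups did not overlap for 11, 6 and 8 of the 13 in these comparisons, in the order just given, against 53%, 27.8% and 54.2% of all. The median log2 change of the 13 was -0.09 at day 14 and 0.27 at day 7 over control, and -0.50 between the days, against -0.04, 0.00453 and -0.02 over all. Ebf1 passed the intensity filter only through day 14 arrays, Cd79a only through leukemic arrays and Rag2 only through day 7 and control arrays, so these counts cover the tested probe sets and not the gene group as a whole. Scaling mattered for the share of all calls that were higher at day 14: it was 38.2% as reported, 48.3% with quantile normalization and 61.6% with arrays set to the same 75th percentile, which moved the median of all probe sets by 0.12. Between the days the share was 39.2% as reported, 49.1% with quantile normalization and 64.1% with the same 75th percentile, which moved the median by 0.13. The 11 member calls at day 14 against control and the 8 between the days were kept under both scalings, with their directions.

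Within groups, the order of the arrays was shared by many members at day 7 and in control, and at day 14 mainly for the highest array. At day 14 replicates 1, 2 and 3 were the lowest for 4, 3 and 6 of the 13, against 38.3%, 31.1% and 28.5% of all. They were the highest for 2, 8 and 3, against 32%, 30.9% and 35.2% of all. Day 7 replicate 1 was the lowest of the 3 day 7 arrays for 13 of the 13 tested probe sets, against 31.4% of all tested probe sets. Day 7 replicate 3 was the highest for 10, against 31.7% of all. Control replicate 2 was the lowest control array for 10 of the 13, against 31.9% of all, and control replicate 3 the highest for 9, against 34.9%. Several of the 13 probe sets share a gene. Without day 7 replicate 1 the day 7 calls were the same 2, Vpreb1 and Igll1, while Dntt on 2 of its probe sets then lay slightly above control, at 0.036 and 0.056.

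Other genes of the same pathways were taken from lists, each gene by its brightest probe set, where 48.6% of 12652 genes were called at day 14 against control (16.6% higher, 32.1% lower) and 2.71% at day 7 (1.81% higher, 0.901% lower). Between the days 47.6% were called, 15.7% higher and 31.9% lower. Of 11 tested recombination cofactors and end joining genes, 8 fell and 1 rose at day 14, while 2 did not pass. Their median log2 change was -0.37, against -0.06 over all genes. Xrcc5 and Xrcc6, which encode the Ku proteins that hold broken ends, fell by 0.81 (SE 0.11) and 0.66 (SE 0.08). Lig4, the ligase of end joining, was at least 1.32-fold lower, since all day 14 arrays were dim. Lig4, 1 of the 8 counted as fallen, entered the test through day 7 and control arrays alone. Polm, a polymerase related to Dntt, rose by 0.25 (SE 0.07, adjusted p = 0.0211 in limma). The calls of Hmgb2, Atm and Trp53bp1 among the 8 were lost with arrays set to the same 75th percentile, that of Atm also with quantile normalization (adjusted p = 0.0589 in limma) and that of Hmgb2 also with no filter on dim probe sets (0.084). At day 7 none of the 11 passed in limma.

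Of 19 tested B lineage transcription factors, 11 rose at day 14 and 1, Bcl11a, fell, with a median of 0.24, and 1 rose at day 7. The call of Bcl11a was lost with arrays set to the same 75th percentile, and those of Sox4 and Mef2c, both higher, with quantile normalization. The call of Sox4 was also lost with the replicate block, and that of Mef2c and of Irf8 with no filter on dim probe sets. Id3 and Id2, which bind E proteins and keep them from DNA, were higher at day 14 by 1.41 (SE 0.24) and 0.96 (SE 0.15), and Id3 was higher at day 7 by 1.02 (SE 0.24, adjusted p = 0.0484 in limma). That day 7 call was lost with the replicate block (adjusted p = 0.0643 in limma) and with no filter on dim probe sets (0.189). Lef1, a lymphoid factor of the Wnt pathway, was at least 1.45-fold higher at day 14 than in control. It was dim on all day 7 and control arrays, so it entered the test through day 14 arrays alone. A difference at day 14 was thus built into the selection of Lef1, 1 of the 11 counted as risen. Pax5, which fixes B cell identity after Ebf1, averaged 13.4 ± 0.66 at day 14, 15.4 ± 1.74 at day 7 and 12.7 ± 2.73 in control (SD, n = 3 each), and was above the 40th percentile on 3 of 9 arrays. Its log2 change at day 14 was 0.10 (SE 0.14) and did not pass.

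Among 16 tested genes of pre-B receptor and B cell signalling, 4 rose (Vpreb3, Pik3ap1, Pik3cd and Blk) and 3 fell (Cd72, Btk and Ptpn6) at day 14, and none passed at day 7 in limma. Blk was dim on all control arrays and entered the test through leukemic arrays alone. Its call was lost with quantile normalization (adjusted p = 0.0754 in limma), with the replicate block (0.0563) and with no filter on dim probe sets (0.101), and that of Pik3cd with no filter (0.0872). Vpreb3, a relative of Vpreb1, read 36.8, 35.5 and 31.3 at day 14, 23.5, 23.6 and 25.1 at day 7, and 18.8, 14.5 and 19.8 in control, in an order without overlap between groups, and rose by 0.97 (SE 0.12) at day 14. Pik3ap1, an adaptor of the kinase PI3K, rose by 0.62 (SE 0.07), and Cd72, a coreceptor that dampens signalling, fell by 0.88 (SE 0.14). Of 12 genes of interleukin 7 and TSLP receptor signalling, 6 rose at day 14 and 1, Jak3, fell, a call lost with both other scalings. Socs3 and Cish, feedback inhibitors of cytokine receptors, rose by 1.57 (SE 0.22) and 0.90 (SE 0.10), and Mcl1, a survival factor, rose by 0.76 (SE 0.10). Of 12 genes of lymphoid priming, 2 rose (Gpr183 and Satb1) and 4 fell (Ccr7, Ccr9, Cd27 and Cd52) at day 14. For Satb1 this holds for its brightest probe set, while its tested probe sets did not all change in the same direction. The call of Cd52 was lost with arrays set to the same 75th percentile, and those of Cd52, Ccr9 and Gpr183 with no filter on dim probe sets. The chemokine receptor gene Ccr9 fell by 0.86 (SE 0.25), and Ccr7 was at least 1.63-fold lower. Ccr7 was dim on all day 14 arrays and entered the test through day 7 and control arrays alone. Flt3, the receptor that marks lymphoid-primed cells, gave -0.08 (SE 0.10) and did not pass. Ly6d, a surface marker of lymphoid progenitors on the B path, read 30.04, 27.1 and 27.6 at day 14, 40.9, 61.1 and 59.7 at day 7, and 23.96, 22.6 and 28.9 in control. It rose by 1.08 at day 7 (SE 0.15, adjusted p = 0.012 in limma), while its change of 0.17 at day 14 (SE 0.15) did not pass. The day 7 calls of Ly6d and Ccr7 were lost with no filter on dim probe sets (adjusted p in limma 0.0835 and 0.112), and that of Ccr7 also with the replicate block (0.058).

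**Figure D4:**
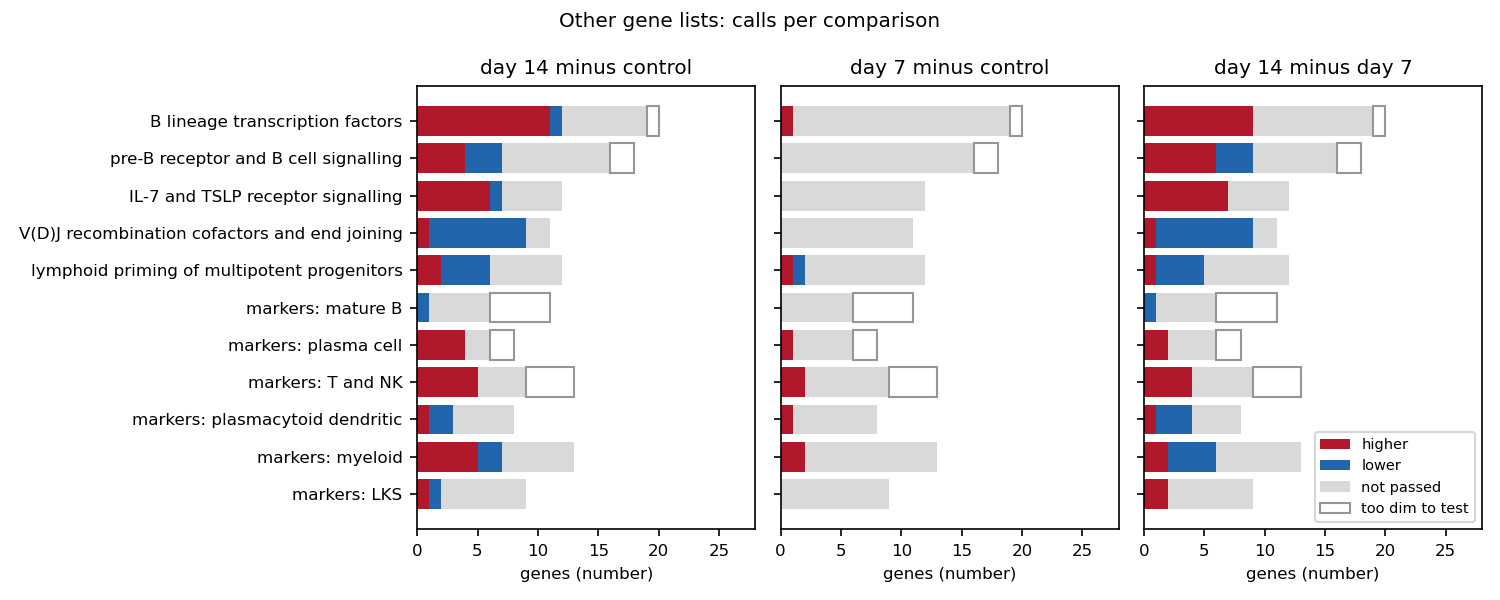
Number of genes higher (red), lower (blue), not passed (grey) and too dim to test (open) in each list, by comparison, each gene by its brightest probe set. The recombination and end joining list has 8 lower and 1 higher gene at day 14 against control; mature B markers have 5 of 11 genes too dim to test.

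Markers of other cells that the sort could hold were read beside these results. Of 11 mature B markers, Ms4a1, Fcer2a, Cr2, Fcmr and Cxcr5 lay below the 40th percentile on all 9 arrays, and the summed intensity of the list was 892 to 1126 at day 14, 772 to 978 at day 7 and 772 to 1254 in control. The 13 T and NK markers summed to 703 to 756 at day 14, 469 to 555 at day 7 and 409 to 455 in control, with 5 of 9 tested genes higher at day 14. The call of Cd8a among them was lost with quantile normalization (adjusted p = 0.0505 in limma) and with no filter on dim probe sets (0.106). Cd28 rose by 2.38 (SE 0.15), Bcl11b, a T lineage transcription factor, by 1.59 (SE 0.13) and Klrd1 by 1.52 (SE 0.28) at day 14. At day 7 Cd28 and Bcl11b were called higher, by 1.45 (SE 0.15) and 0.85 (SE 0.13). These 2 day 7 calls were lost with no filter on dim probe sets (adjusted p in limma 0.0573 and 0.0955). Cd3d, Cd3g, Cd8b1 and Ncr1 were dim on all 9 arrays. Cd3e averaged 25.8 ± 1.56 at day 14, 21.0 ± 0.35 at day 7 and 19.0 ± 1.60 in control. The 8 plasma cell markers summed to 2169 to 2343 at day 14, 1630 to 1718 at day 7 and 1620 to 1814 in control. Of these, Prdm1 and Tnfrsf17 were dim on all 9 arrays, and 4 of 6 tested genes were higher and none lower at day 14. Among the 4, Irf4 rose by 0.80 (SE 0.15) and Mzb1 by 0.61 (SE 0.17). The call of Mzb1 was lost with no filter on dim probe sets (adjusted p = 0.0723 in limma). Within that list Jchain, the joining chain of secreted antibodies, averaged 70.9 ± 16.5 at day 14, 96.5 ± 6.94 at day 7 and 11.0 ± 9.04 in control. The 8 plasmacytoid dendritic markers summed to 2224 to 2628 at day 14, 1999 to 2380 at day 7 and 1896 to 2422 in control, with 1 higher and 2 lower at day 14. The 13 myeloid markers summed to 10528 to 13297 at day 14, 9006 to 11055 at day 7 and 7805 to 9658 in control, with 5 of 13 higher and 2 lower at day 14. Elane, neutrophil elastase, rose by 1.80 (SE 0.23), as did Ms4a3, Csf1r, Prtn3 and Mpo, while S100a8 and S100a9, calcium-binding proteins of mature neutrophils, fell by 0.99 (SE 0.24, adjusted p = 0.00799 in limma) and 0.75 (SE 0.26, adjusted p = 0.0411). The call of S100a9 was lost with arrays set to the same 75th percentile and with no filter, and that of Mpo with quantile normalization, the replicate block and no filter. Mki67, a marker of cycling cells, averaged 750 ± 76.7 at day 14, 1710 ± 199 at day 7 and 1076 ± 213 in control. The part of these markers in the results above was not tested.

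The genes whose pattern over the 9 arrays lay closest to a member were found by the mean absolute difference between log2 values centred on each gene's own mean, over 12651 genes. Closest to Vpreb1 were Bcl11b (0.17), Trgv1 (0.22), a T cell receptor gamma segment, and Dusp10 (0.23), a phosphatase of stress kinases. Igll1 lay closest to Med29 (0.17), Irs2 (0.17) and Crem (0.19). Dntt lay closest to Lpar6 (0.10), Ppm1e (0.10) and Cnn3 (0.10), and Il7r to H3c7 (0.18), Plk2 (0.20) and Dtx4 (0.21).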

How the data were processed

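Sorted marrow cells gave RNA for 9 arrays of the Affymetrix Mouse 430 2.0 design, and each array's title put it in 1 of the groups of 3. The values are the authors' deposited normalized intensities, 1 per probe set and array, from 1.61 to 13899. RNA was amplified over 2 cycles and signals were normalized with Microarray Analysis Software 5.0, per the series' design text. That 51.6% of probe sets hold equal values on at least 2 arrays leaves the scaling uncertain, so it was varied. Gene symbols came from the annotation of the array platform (34945 with 1 symbol, 932 with several, 9160 with none).

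Intensities below the table's 20th percentile (5.81) were raised to it and log2 was taken. Every probe set above the 40th percentile of its array on at least 3 arrays was tested on its own, since the members are probe sets, with limma 3.58.1 in R 4.3.3, in 1 model over all 9 arrays without covariates, by moderated two-sided tests and Benjamini-Hochberg adjustment over 27665 probe sets, called below 0.05. Only the limma step was tested on simulated data, with far fewer changed probe sets than were called at day 14. The floor and the intensity filter were not tested in this way. Precision is limited by having 3 arrays a group, and the labels name no batch. The members and lists were chosen with earlier results of these data known. List genes named are up to 3 called per direction, list and comparison with the largest change and 1 sign on all tested probe sets, plus Pax5, Kit, Flt3, Jchain, Cd3e and Mki67; further genes are named where a count or a detection level turns on them. Of the listed genes, 13 without a probe set of their own symbol only are not analysed here, and 1 other is not reported here. Same-numbered arrays deviated together (correlation above 0.1) in 1 of 9 pairs, so replicate numbers were not taken as pairs. Alternatives were 2 other scalings, no floor, an offset of 32, no or a stricter filter (60th percentile), 1 probe set per gene, the replicate number as a block, a trended robust prior, only the 2 groups compared, and each array left out.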

Additional observations from a re-analysis of the deposited data

Results flagged for a closer look

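The change from control differed between day 14 and day 7 for 8 tested probe sets of 6 genes, by the limma contrast of the 2 days, where 42.2% of all tested probe sets differed. The day 14 change minus the day 7 change was 1.47 on the log2 scale for Ebf1 and 0.66 for Igll1. It was -1.58 for Rag2, -0.84 for Bank1 and -0.59 for Cd79b. For Dntt it was -1.13, -0.64 and -0.62 on its 3 probe sets. For Ebf1 and Rag2 these differences are against arrays below the 40th percentile, so only bounds hold, at least 2.07-fold higher and at least 1.93-fold lower at day 14 than at day 7. Ebf1 entered the test through day 14 arrays alone and Rag2 through day 7 and control arrays alone. Both changes share the control arrays, which cancel in this contrast.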

How the results depend on the processing

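Of the members' calls, all were kept in direction under every alternative run for them. The number of member probe sets called at day 7 against control, 2 as reported, was 0 when dim probe sets were kept in the test (adjusted p in limma 0.13 for Vpreb1 and 0.128 for Igll1) and 1 with only the 2 groups compared. With 1 array left out it was 0 to 2, at 0 without day 7 replicate 2 or 3 and at 1 without any 1 of the control arrays. At day 14 against control it was 11, and 7 with the stricter filter, which also removed dim members from the test, and 9 to 11 with 1 array left out. Between the days it was 8 (2 higher, 6 lower), 12 with no filter on dim probe sets (6 higher, 6 lower), and 7 or 8 with 1 array left out. Over all probe sets, the 938 called at day 7 became 1429 with an offset of 32, 32 without the filter, 423 with 1 probe set per gene, 458 with the replicate block, 1659 with the trended robust prior and 365 with only the 2 groups compared, and 137 to 1015 with 1 array left out. It was 137, 157 and 190 without day 7 replicates 1, 2 and 3, 229 without control replicate 3 and 596 without day 14 replicate 2. With 1 probe set per gene, which tests fewer probe sets, 6626 were called at day 14 against control, where 12290 were as reported, and 6455 between the days, where 11673 were. With the replicate block the call of Rag1 at day 14 was lost (adjusted p = 0.051 in limma), and no other member call. The cause of these shifts was not tested unless stated.

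Changes that turned sign were ones that had not passed. With arrays set to the same 75th percentile Cd79b at day 7 was -0.000952, Il7r 1448576_at at day 14 was 0.027 and Rag1 between the days was 0.11, and with quantile normalization Rag1 between the days was 0.00164. With 1 array left out, day 7 against control ran from -0.011 to 0.050 for Cd79b, from -0.11 to 0.23 for Rag2, from -0.13 to 0.042 for Dntt 1420166_at and from -0.34 to 0.056 for Dntt 1450545_a_at. Day 14 against control ran from -0.036 to 0.39 for Il7r 1448575_at and from -0.37 to 0.18 for Il7r 1448576_at, and day 14 against day 7 from -0.016 to 0.16 for Cd79a and from -0.30 to 0.15 for Rag1. Signal over background limits Ebf1, Cd79a, Rag2 at day 14 and the second Igll1 probe set.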
